A study of Mus musculus with 27 samples.

Results

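The gene group described here joins the glycolytic pathway to genes known as targets of the hypoxia-inducible factors (HIFs). It was set by a list of 34 mouse gene symbols. Each gene was read from the probe set that the platform annotation ties to that gene alone, and where several qualified the one with the highest mean over all 27 arrays was used. By this rule 31 of the 34 genes were measured, among 19937 genes in all. They were 2 glucose transporters, 11 glycolytic enzymes, 2 PFKFB regulators, 5 genes of lactate and pyruvate fate, 9 HIF targets outside glycolysis and 2 HIF alpha subunits. Gpi1 and Eno1 had no annotated probe set, and Gapdh lay only on probe sets shared with other genes.

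The study hybridized RNA from mouse neural stem cell (NSC) lines and from tumors on Affymetrix arrays, 1 array a sample. Immortalized lines in culture were set against normal NSCs, and tumors against normal subcutaneous tissue (SubQ). The 10 lines comprised 6 labelled p53 mutant (lines 3, 28, 31, 59, 95 and 116) and 4 labelled WT (lines 119, 120, 123 and 331), and each line was measured once. The 2 NSC cultures and the 3 SubQ samples were labelled WT. The 12 tumors were 3 each from line 1 (WT), line 31 (p53 mutant), line 59 (p53 mutant) and line 123 (WT), and their labelled tissue was subcutaneous. Every sample, the cultures included, carried the host strain label CB17/ICR-Prkdcscid/IcrCrl, an immunodeficient SCID strain. The labels do not say how the lines were immortalized, or their passage. They call the samples biological replicates without naming the animal or culture behind each, so the p-values rest on sample-to-sample spread alone, part of which may be technical.

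Glycolysis carries glucose, taken up through transporters, to pyruvate. Pyruvate is then either reduced to lactate and exported or passed into the mitochondrial tricarboxylic acid (TCA) cycle. When oxygen falls, the prolyl hydroxylases stop marking HIF alpha subunits for destruction, and the stabilized factors raise transcription of many glycolytic genes along with genes of angiogenesis, pH control and mitophagy. HIF1A protein is regulated mainly through its stability, so Hif1a mRNA is not a measure of HIF activity.

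Values are log2 levels, and a difference of 1 on this scale is 2-fold. A gene is called changed where its limma p-value, adjusted by the Benjamini-Hochberg method over all 19937 genes, is under 0.05. The median over genes lay between 7.18 and 7.28 on the line and NSC arrays and between 5.66 and 5.87 on the tumor and SubQ arrays. A cell array and a tissue array never shared an identical value, whereas pairs within either kind shared 28 to 626 of them, so a difference between cell and tissue arrays as deposited also holds the offset between their scales. The SubQ arrays stood apart. Their SD over genes was 0.87 to 1.02, against 1.63 to 1.79 in tumors, and they correlated with each other at 0.656 to 0.720, against 0.936 to 0.985 between tumors. Neural stem cell markers (Nes, Sox2 and 8 others) had medians of 9.60 to 9.79 in the NSCs and 6.40 to 8.02 in the lines, where 7 of 10 were called lower. In tumors their medians were 4.87 to 6.12 and in SubQ 5.55 to 5.62. For 5 members (Hk1, Bnip3, Pkm, Ldhb and Pgam1) the neighbouring probe sets in number lay on another chromosome than the gene, which leaves their annotation uncertain.

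**Figure D1:**
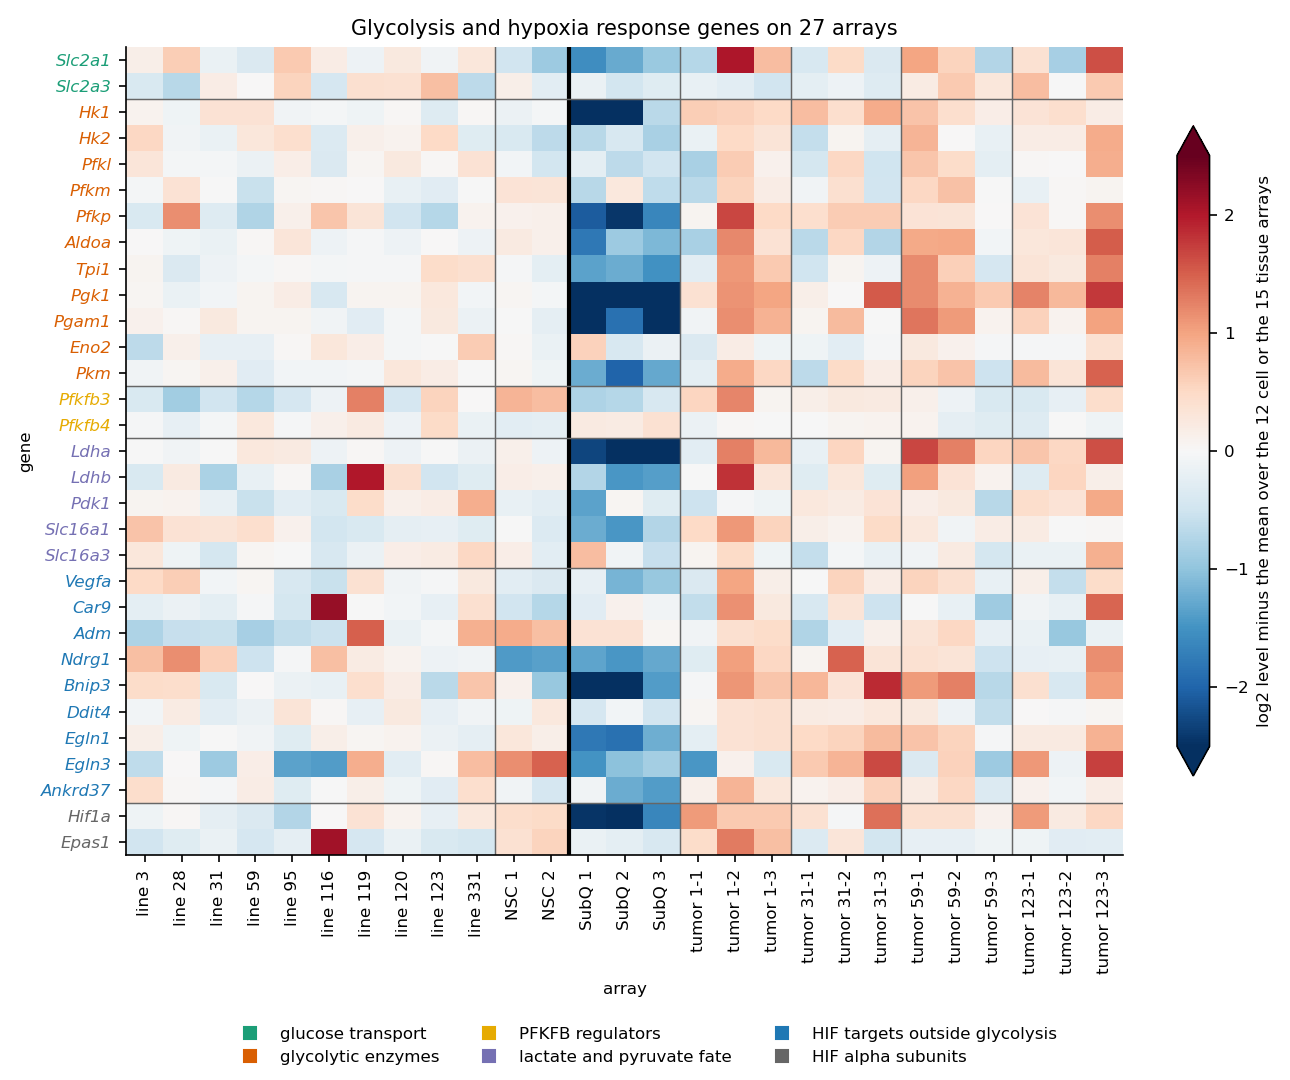
Log2 level of each of the 31 genes (rows, coloured by role) on the 27 arrays (columns), minus the gene's mean over the 12 cell arrays (left of the thick line) or the 15 tissue arrays (right of it). Pgk1, Ldha and Hif1a are low on the 3 SubQ arrays, tumors of the same line differ from each other, and line 116 stands out for Car9 and Epas1.

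HIF binds the core letters ACGTG, which read CACGT on the other strand. RefSeq promoters (GRCm38.p6, 250 bases before to 50 after a start) were listed for 31 of the 34 genes and searched on both strands. Slc2a3, Ndrg1 and Epas1 had no promoter listed, whereas Gpi1, Eno1 and Gapdh did, so this set differs from the 31 measured genes. Of these 31 genes 21 (67.7%) held ACGTG at one or more of their starts, against 21.8% of 27025 genes. Among the glycolytic enzyme genes 8 of 14 held it (57.1%), and among the HIF targets 7 of 8 (87.5%). Counted by promoter the shares were 24 of 44 (54.5%) and 19.6% of all 32851. The looser choice of ACGTG or GCGTG was found in 79.5% of the group's promoters and 43.8% of all. A palindromic CACGTG holds ACGTG on both strands, is also an E-box, and was found in 13.6% and 7.2% of promoters. The windows below belong to 6 of the listed genes, picked by hand from transport to hypoxia targets, and all 6 hold ACGTG. A window is the stretch before the start with the most matches, and on ties the one nearest the start. Each is 150 bases, read 5′ to 3′ on the gene's own strand and ending just before the start, except for Egln3, whose window begins at the match and ends 80 bases before the start. Capitals mark ACGTG or CACGT.
Slc2a1: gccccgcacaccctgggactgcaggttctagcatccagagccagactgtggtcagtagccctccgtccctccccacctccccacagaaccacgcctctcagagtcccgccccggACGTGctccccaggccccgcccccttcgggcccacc
Pgk1: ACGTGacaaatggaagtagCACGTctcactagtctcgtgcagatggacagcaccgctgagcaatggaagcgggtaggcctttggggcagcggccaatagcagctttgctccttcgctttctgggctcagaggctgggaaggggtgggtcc
Ldha: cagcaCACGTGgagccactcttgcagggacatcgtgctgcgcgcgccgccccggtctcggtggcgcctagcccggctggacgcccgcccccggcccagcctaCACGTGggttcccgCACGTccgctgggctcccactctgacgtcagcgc
Bnip3: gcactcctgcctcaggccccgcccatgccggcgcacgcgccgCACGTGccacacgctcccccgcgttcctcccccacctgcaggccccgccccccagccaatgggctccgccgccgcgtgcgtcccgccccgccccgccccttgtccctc
Egln3: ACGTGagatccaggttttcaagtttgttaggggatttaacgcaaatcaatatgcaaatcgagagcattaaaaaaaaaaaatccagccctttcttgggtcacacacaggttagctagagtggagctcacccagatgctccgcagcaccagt
Car9: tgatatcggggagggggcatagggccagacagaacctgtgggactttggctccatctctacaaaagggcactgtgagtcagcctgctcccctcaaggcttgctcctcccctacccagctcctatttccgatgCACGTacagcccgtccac
They lie at chr4:119108595-119108744 on the plus strand (Slc2a1), chrX:106186950-106187099 on the plus strand (Pgk1), chr7:46845654-46845803 on the plus strand (Ldha, the first of 2 starts), chr7:138909507-138909656 on the minus strand (Bnip3), chr12:54203954-54204103 on the minus strand (Egln3) and chr4:43506876-43507025 on the plus strand (Car9). The Ldha window held 5 matches on the 2 strands together, Pgk1 and Bnip3 held 2 each, and the others held 1. A match is a description of these letters, not a site shown to be bound.

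Immortalized lines were first set against normal NSCs, the comparison the design states. Slc2a1, the main glucose transporter of most growing cells, and Ndrg1, a hypoxia- and stress-induced gene, were higher in the lines, and no glycolytic enzyme was called. Of the 31 genes 2 were called higher and 0 lower with limma, and 8 had an unadjusted p under 0.05. Over all genes 15% were called, 6.79% higher and 8.22% lower, and 5242 of 19937 had an unadjusted p under 0.05.

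Slc2a1 ranged from 9.96 to 10.98 over the 10 lines (median 10.49) and was 9.85 and 9.41 in the 2 NSC cultures. Every line lay above both cultures, by 0.84 ± 0.23 on average (SE; limma adjusted p = 0.0281). Ndrg1 ranged from 8.26 to 9.95 in the lines (median 8.92), against 7.36 and 7.42 in the NSCs, a difference of 1.67 ± 0.34 (SE; limma adjusted p = 0.0043). Both calls needed both NSC arrays. Without NSC 1 the differences were 1.05 (limma adjusted p = 0.0735) for Slc2a1 and 1.64 (0.0674) for Ndrg1, and without NSC 2 they were 0.62 (0.355) and 1.71 (0.0578). The second glucose transporter, Slc2a3, differed by 0.07 and was not called.

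None of the 11 glycolytic enzymes was called with limma, and 2 had an unadjusted p under 0.05. Their median difference was 0.08, in a range of -0.39 to 0.62, against a median of -0.01 over all genes. Pgk1, phosphoglycerate kinase, was 11.82 to 12.48 in the lines (median 12.28) and 12.26 and 12.16 in the NSCs. Its difference was 0.00 with a 95% interval of -0.29 to 0.30. Hk2, the inducible hexokinase that traps glucose in the cell, had the largest rise of the 11. It was 7.87 to 8.74 in the lines, above 7.84 and 7.56 in both NSCs, but the difference of 0.62 had a limma adjusted p of 0.080. Pfkm, the muscle-type phosphofructokinase, was at the other end with -0.39 (adjusted p = 0.149). Ldha, which makes lactate from pyruvate, differed by 0.00 with an interval of -0.25 to 0.26.

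The PFKFB enzymes set the level of the phosphofructokinase activator fructose 2,6-bisphosphate. Pfkfb3 was 6.58 to 8.71 in the lines (median 7.06), against 8.31 and 8.22 in the NSCs, and its difference of -0.97 had a limma adjusted p of 0.156. Line 119 alone lay above the NSCs at 8.71, and without that line the gene was called (-1.13, adjusted p = 0.0165). Pfkfb4 differed by 0.29 and lay above both NSCs in every line, without a call. Pdk1, which blocks pyruvate entry to the TCA cycle, and the lactate carriers Slc16a1 and Slc16a3 differed by 0.27, 0.22 and 0.06, and none was called.

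The HIF targets outside glycolysis had differences of both signs. Against the rise of Ndrg1 stood Egln3, a HIF prolyl hydroxylase that is itself induced by HIF. It was 6.25 to 8.55 in the lines (median 7.52) and 8.80 and 9.12 in the NSCs, with no line reaching either culture. Its difference of -1.58 ± 0.53 (SE) had a limma adjusted p of 0.064, and 0.0306 without line 119 or 0.0375 without line 331. Adm, the vasodilator peptide adrenomedullin, was 6.69 to 9.02 in the lines, against 8.45 and 8.27, and differed by -1.01 (adjusted p = 0.233), or by -1.20 (0.0372) without line 119. Vegfa, the angiogenic growth factor, Bnip3, a mitophagy receptor, Ankrd37 and Car9, a cell-surface carbonic anhydrase, had positive differences of 0.38, 0.50, 0.30 and 0.72, none called. Egln1, the main HIF prolyl hydroxylase, lay below the NSCs in every line by a mean of 0.26, and Ddit4, an inhibitor of mTORC1, differed by -0.10. Groups did not overlap for 5 of the 31 genes upward and 3 downward, where 10.1% and 11.1% of all genes did so.

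Hif1a was 9.28 to 10.37 in the lines (median 9.96), below 10.45 and 10.49 in both NSCs, with a difference of -0.54 (limma adjusted p = 0.117). Epas1, which encodes HIF-2 alpha, was 6.40 to 6.71 in 9 lines and 8.97 in line 116, against 7.25 and 7.43 in the NSCs. Its difference of -0.56 was not called with line 116 (adjusted p = 0.583) and was called without it (-0.80, limma adjusted p = 0.000233).

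The genes that take pyruvate onward were counted in the same fit. Of 23 genes of pyruvate entry and the TCA cycle 13 were called lower with limma and 1 higher, and 22 had a negative difference, with a median of -0.49. The succinate dehydrogenase subunits led. Sdhc fell by 0.90 ± 0.19 (SE; adjusted p = 0.0057), Sdhb by 0.79 ± 0.11 (0.000167) and Sdhd by 0.77. Sdhb was 8.30 to 8.69 in the lines and 9.25 and 9.28 in the NSCs, so the groups lay apart. Pdp1, the phosphatase that reactivates pyruvate dehydrogenase, was the one called higher (0.85, adjusted p = 0.0438). The count fell from 13 to 3 without NSC 1, to 5 without NSC 2 and to 8 without line 120, and none of the 13 reached a 2-fold change.

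Other isozymes and partners of glycolysis (27 genes) gave 4 called higher and 1 lower. The one lower was Aldoc, the brain aldolase and an astrocyte marker, at 6.71 to 7.07 in the lines against 11.18 and 11.24, a change of -4.26 ± 0.10 (SE; limma adjusted p = 4.154e-12). The muscle enolase Eno3 rose by 1.71. Among 38 further hypoxia response genes 6 were called higher and 4 lower. The higher ones were led by the collagen cross-linking enzyme Lox (4.72), the vasoconstrictor peptide Edn1 (2.38) and the collagen prolyl hydroxylase P4ha2 (1.89), and the lower ones by Trf (-3.20), Ppp1r3c (-2.18) and Higd1a (-0.73). Beside these, 3 of 8 fibroblast markers were called higher in the lines and 7 of 10 neural stem cell markers lower. Their part in these results was not tested. Of 20 genes of HIF regulation 3 were higher (Eif4ebp1, Elob and Ep300), of 7 pentose phosphate genes 1 was higher and 2 lower, and of 6 gluconeogenesis genes 0 were called with limma and 1 had an unadjusted p under 0.05.

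P53 mutant lines were next set against p53 WT lines. No member was called with limma, and 7 of 31 had an unadjusted p under 0.05. Over all genes 0.0201% were called, which is 4 genes, and 1701 had an unadjusted p under 0.05. The mutant and WT ranges did not overlap for 2 members, Adm and Pdk1, both lower in the mutant lines, as did 1.02% of all genes in that direction. Adm was 6.69 to 6.99 in the 6 mutant lines (median 6.93) and 9.02, 7.35, 7.46 and 8.41 in the 4 WT lines. Every mutant line was below every WT line, and the WT lines differed widely among themselves. The difference was -1.19 ± 0.28 (SE; limma adjusted p = 0.383). Pdk1 was 6.97 to 7.61 in the mutant lines (median 7.29) and 7.97, 7.64, 7.71 and 8.43 in the WT lines, a difference of -0.62 ± 0.17 (SE; limma adjusted p = 0.412), with a narrow gap between the ranges. Pfkfb3 (-0.86), Egln3 (-1.05), Hif1a (-0.36) and Tpi1 (-0.28) had lower means in the mutant lines and Slc16a1 (0.53) a higher one, with overlapping ranges.

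Set against the NSCs, the 6 mutant lines alone gave Ndrg1 as higher (1.85, limma adjusted p = 0.0113), and Slc2a1 was not called (0.87, 0.0648). They gave 4 members called lower, namely Pfkfb3 (-1.32, limma adjusted p = 0.00113), Adm (-1.49, 2.78e-05), Egln3 (-2.0, 0.0116) and Hif1a (-0.69, 0.04). The 4 WT lines alone gave Slc2a1 (0.78, limma adjusted p = 0.0347) and Ndrg1 (1.41, 0.000576) as higher and Epas1 (-0.82, 0.0068) as lower. Over all 19937 genes 3084 were called with the mutant lines alone and 2390 with the WT lines alone, so these member counts are near the share of all genes. The 2 comparisons share the NSC cultures, and the direct comparison of mutant with WT lines called no member.

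Tumors were then set against normal subcutaneous tissue. Most of the pathway was higher in the tumors as deposited, where Pgk1, Ldha and Bnip3 had the largest differences. Of the 31 genes 22 were called higher and 1 lower with limma, where 30.7% of all genes were called higher and 45.8% lower, 76.5% in all. The median difference of the 31 genes was 1.41, against -0.28 over all genes. Every tumor lay above every SubQ sample for 16 of the 31 genes and below for 1, where 21.9% and 30.6% of all genes did so. The fit took all tumors as independent samples, although those of the same line had a consensus correlation of 0.383.

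The background level also differed between the groups. Over 1194 olfactory and vomeronasal receptor genes, a set chosen after seeing the data as one not known for expression in these tissues, the median was 4.79 to 5.08 on SubQ arrays and 3.47 to 3.87 on tumor arrays. Their 75th percentile, called the receptor level here, was 5.38 to 5.61 and 4.15 to 4.46. Of the 31 genes 13 lay at or below the receptor level on at least 1 SubQ array and 0 on a tumor array. For those 13 the SubQ level is not clearly above background, and the difference is no exact fold.

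Slc2a1 was 5.98, 6.29 and 6.61 in SubQ and 6.72 to 9.56 in the tumors (median 7.97), higher by 1.56 ± 0.50 (SE; limma adjusted p = 0.0089). The lowest tumor was just above the highest SubQ sample. Slc2a3 differed by 0.38 and was not called.

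Of the 11 glycolytic enzymes 8 were called higher, with a median of 1.71 over the 11. Pgk1 was 5.96, 6.51 and 7.21 in SubQ and 10.15 to 11.90 in the tumors (median 11.06). The gap between the groups exceeded the whole range of either, and the difference was 4.47 ± 0.32 (SE; limma adjusted p = 3.494e-09). Pgam1, phosphoglycerate mutase, was 5.35, 6.0 and 5.24 in SubQ, within the receptor level on 2 of the 3 arrays, and 7.77 to 9.19 in the tumors, higher by 2.91. Pfkp (2.56), Hk1 (2.54), the pyruvate kinase Pkm (1.88), Tpi1 (1.71), Aldoa (1.59) and Hk2 (0.79) were also called higher, while Pfkl (0.57), Pfkm (0.43) and Eno2 (-0.01) were not. Pfkfb3 was higher by 0.79. Pfkfb4 was the one gene called lower, at 4.71 to 5.12 in the tumors against 5.25, 5.24 and 5.41 in SubQ (-0.34, limma adjusted p = 0.0151). It was within the receptor level on 2 of 3 SubQ arrays and above it on all 12 tumor arrays, and the part of the background offset in this call was not tested.

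Ldha was 7.76, 7.33 and 6.52 in SubQ and 9.79 to 11.72 in the tumors (median 10.67), apart by more than either group's range. It was higher by 3.55 ± 0.37 (SE; limma adjusted p = 2.272e-07). Ldhb (1.48), Slc16a1 (1.44) and Pdk1 (0.66) were called higher too, and Slc16a3 (-0.05) was not. Slc16a1 was within the receptor level on all 3 SubQ arrays. The Ldhb call rested on the probe set whose neighbours lie on another chromosome, and with the gene's other probe set the difference was 0.59 (adjusted p = 0.189).

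Of the 9 HIF targets 7 were called higher, with a median of 1.14. Bnip3 was 5.09, 5.03 and 6.69 in SubQ and 7.39 to 9.96 in the tumors (median 8.85), higher by 3.11 ± 0.44 (SE; limma adjusted p = 6.328e-06). Its SubQ level was within the receptor level on 2 of 3 arrays, as were those of Egln1, Ankrd37 and Ddit4. Egln1 (2.03), Ndrg1 (1.69), Egln3 (1.41), Ankrd37 (1.14), Vegfa (0.96) and Ddit4 (0.41) followed. Car9 (0.12) and Adm (-0.32) were not called. Without SubQ 1 the calls of Egln3 (1.22, limma adjusted p = 0.0932), Ddit4 (0.36, 0.126) and Pdk1 (0.25, 0.455) were lost. Those of Pdk1 and Ddit4 were lost in 10 and 8 of the 15 fits that left out one sample and with tumor line as a random block (limma adjusted p = 0.0661 and 0.0714), and that of Egln3 without SubQ 2 (1.45, 0.051). Hif1a was 6.26, 6.02 and 7.07 in SubQ and 8.67 to 10.08 in the tumors (median 9.17), higher by 2.82 ± 0.26 (SE; limma adjusted p = 6.562e-08). Epas1 differed by 0.34 and was not called.

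Some of these calls depend on scaling, and the SubQ arrays had the narrower signal range given above. Quantile normalization, which gives every array the same distribution, left 17 of the 31 genes called higher and 0 lower, of which 15 were called as deposited too. Over all genes it gave 26.1% higher and 32.4% lower. Of the 11 enzymes 6 were then called, with a median of 0.58, and of the 9 HIF targets 5, with a median of 0.82. Aldoa (-0.17), Tpi1 (-0.02), Vegfa (-0.43) and Pfkfb4 (0.22) changed sign and lost their calls, as Slc2a1 (1.03), Pkm (0.25), Pdk1 (0.42) and Egln3 (0.82) lost theirs without a change of sign. The difference of Ldha became 1.99 and that of Hk1 0.78, while those of Pgk1 and Bnip3 were 3.57 and 3.04. Pgk1, Ldha, Bnip3, Pgam1, Pfkp, Egln1 and Hif1a were called higher under both scalings.

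**Figure D2:**
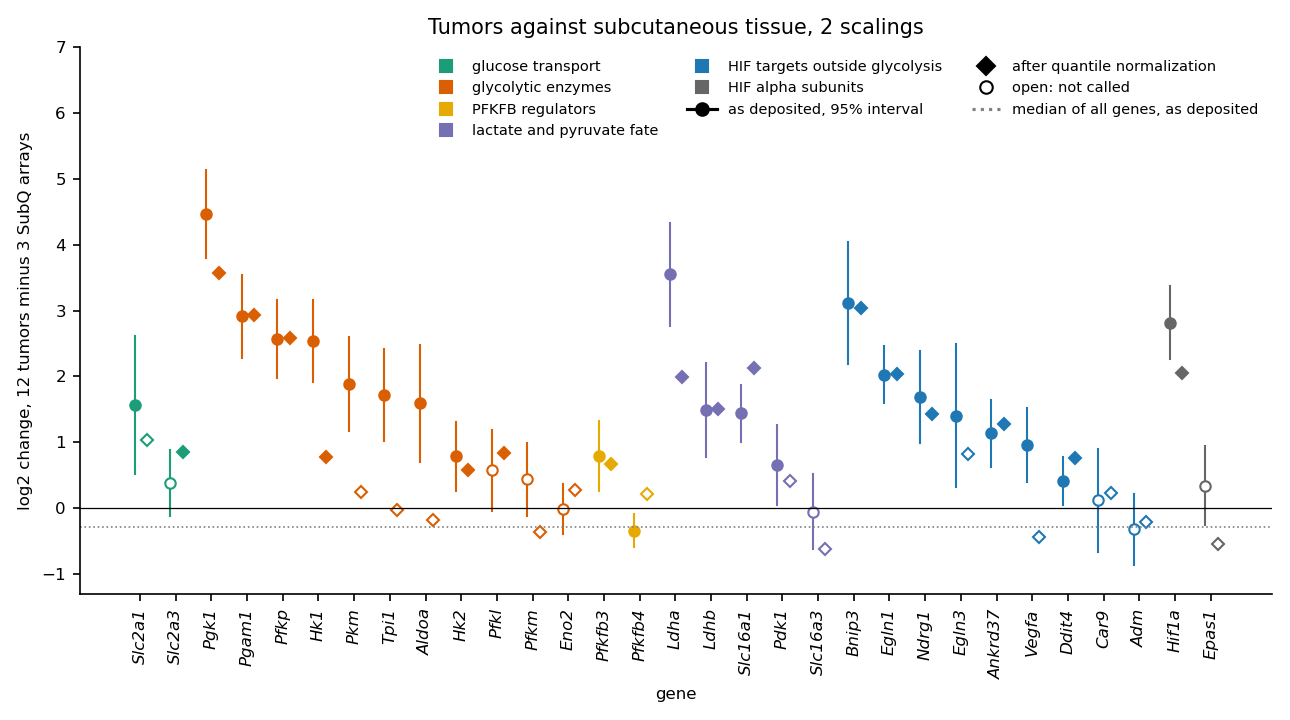
Log2 change of the mean of the 12 tumors against the mean of the 3 SubQ arrays, as deposited (circles with 95% limma intervals) and after quantile normalization (diamonds). Open symbols were not called, and the dotted line is the median of all genes as deposited, -0.28. Pgk1, Ldha, Bnip3 and Hif1a were called higher under both scalings, while Aldoa, Tpi1, Pfkfb4 and Vegfa change sign.

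Related lists gave mixed counts as deposited. Of the 23 genes of pyruvate entry and the TCA cycle 20 were called higher, led by Sdha (3.02), Cs (2.77) and Mdh2 (2.48), and 1 lower. Among 38 further hypoxia genes 21 were higher, led by Plod2 (4.10), Mif (3.11) and P4ha1 (2.84), and 6 lower. The collagen hydroxylases Plod2 and P4ha1 act in matrix synthesis. HIF regulation genes gave 15 higher and 1 lower of 20, other glycolysis isozymes 8 higher and 11 lower of 27, pentose phosphate genes 3 higher and 1 lower of 7, and gluconeogenesis genes 0 higher and 4 lower of 6. Cell type markers are read against the 30.7% of all genes called higher and 45.8% lower. Macrophage markers were called higher for 10 of 11 and fibroblast markers for 7 of 8, while skeletal muscle markers were lower for 8 of 12 and adipocyte markers for 8 of 9. Endothelial markers (3 of 9 higher) and keratinocyte markers (4 of 8 lower) were near the share of all genes. In such bulk samples fewer cells of a type and less RNA per cell cannot be told apart, and the part of these markers in the 22 calls was not tested.

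The 4 tumor lines were compared with each other to see whether the line of origin set the level of these genes. A moderated F test over the 4 lines called Slc2a3 (line means spanning 0.78, limma adjusted p = 0.048) and Epas1 (1.05, adjusted p = 0.0284), 2 of 31 genes, a share near the 5.07% of all genes called. Leaving out one tumor at a time left 0 or 1 of them.

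Epas1 was 7.40, 8.23 and 7.68 in the line 1 tumors and 6.48 to 7.23 in the other 9, with no overlap. It was higher in line 1 by 1.02 ± 0.18 (SE; limma adjusted p = 0.0075). Slc16a1 was 6.54, 7.11 and 6.60 in line 1 and 5.95 to 6.51 elsewhere, a gap of a few hundredths between the groups, and was higher by 0.57 ± 0.14 (SE; limma adjusted p = 0.039). That call was lost in 9 of 12 fits that left out one tumor, where the difference was 0.39 to 0.68. These 2 were the only members called for line 1, in either direction, where 4.62% of all genes were. The unadjusted p was under 0.05 for 6 members, beside 3555 of all 19937 genes. Endothelial markers had medians of 7.44, 6.42 and 6.78 in the line 1 tumors and 5.81 to 6.23 in the others. Of these markers 2 of 9 were called higher in line 1 (Tek 3.78, Pecam1 0.68) and all 9 had an unadjusted p under 0.05, and of the macrophage markers 3 of 11 were called lower. Their part in the Epas1 difference was not tested. For lines 31, 59 and 123 no member was called with limma, where 1.39%, 1.17% and 0.848% of all genes were. In these, 4, 2 and 2 members had an unadjusted p under 0.05, beside 2827, 2556 and 2436 of all 19937 genes.

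Tumors of the same line differed among themselves. For 26 of the 31 genes (83.9%) the SD within lines was larger than the SD of the line means, near the share of all genes, 74.1%, and a mean of 3 tumors varies less than single tumors do. The median SD within lines was 0.444 for the members and 0.215 for all genes. Slc2a1 was 6.82, 9.56 and 8.31 in the line 1 tumors, 7.15, 8.01 and 7.17 in line 31, 8.52, 8.09 and 6.80 in line 59, and 7.92, 6.72 and 9.16 in line 123. The highest and lowest tumor were 7.17-fold apart, and 3 of the 4 lines each held a tumor above 8.5 and one below 8. Egln3 spanned 8.86-fold, from 6.02 to 9.17, Bnip3 5.91-fold, Aldoa 5.08-fold and Car9 5.06-fold, from 5.01 to 7.35.

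The same tumors recurred at the ends. The third tumor of line 123 was highest for 12 of the 31 genes and the second of line 1 for 8, where they were highest for 7.15% and 10.9% of all genes. The third tumor of line 59 was lowest for 9 and the first of line 1 for 8, where they were lowest for 7.27% and 7.61% of all genes. To set the enzymes beside the HIF targets, each gene was expressed relative to its mean over the 15 tissue arrays and the median taken per array. The enzyme median ran from -0.24 to 1.01 over the tumors and the HIF target median from -0.52 to 0.86. For the correlations each gene was instead taken relative to its mean over the 12 tumors alone. The 2 medians so formed had a Pearson r of 0.755 and a Spearman rho of 0.776. Without the 2 tumors farthest out r was 0.626. After subtracting each line's mean r was 0.926.

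The array's own signal range moved with both. Over the same 12 arrays, the SD over all genes was set against these tumor-only medians. It correlated with that of the enzymes at r = 0.870 and with that of the HIF targets at 0.729. After quantile normalization the enzyme and HIF target medians correlated at 0.692 (0.888 within lines), and the deposited SD still correlated with them at 0.812 and 0.652. Taken gene by gene, r with the array SD was over 0.7 for 7 of 11 enzymes (63.6%), for 1 of 9 HIF targets and for 4.37% of all genes. The points of these correlations share the arrays, so the values are descriptions, and the part of the signal range in the shared variation was not tested. In the 10 cultured lines, relative to the 12 cell arrays, the enzyme median spanned only -0.07 to 0.07 and the HIF target median -0.31 to 0.41. With both taken relative to the 10 lines alone, r between them was -0.110 (rho 0.03). It was 0.224 without the 2 lines farthest out and -0.484 after quantile normalization (0.431 without 2), so its sign was not stable. The enzymes had the smaller spread in culture, with a median SD of 0.222 over the lines against 0.432 for the HIF targets. In tumors the figures were 0.522 and 0.463, where all genes had 0.182 and 0.237.

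**Figure D3:**
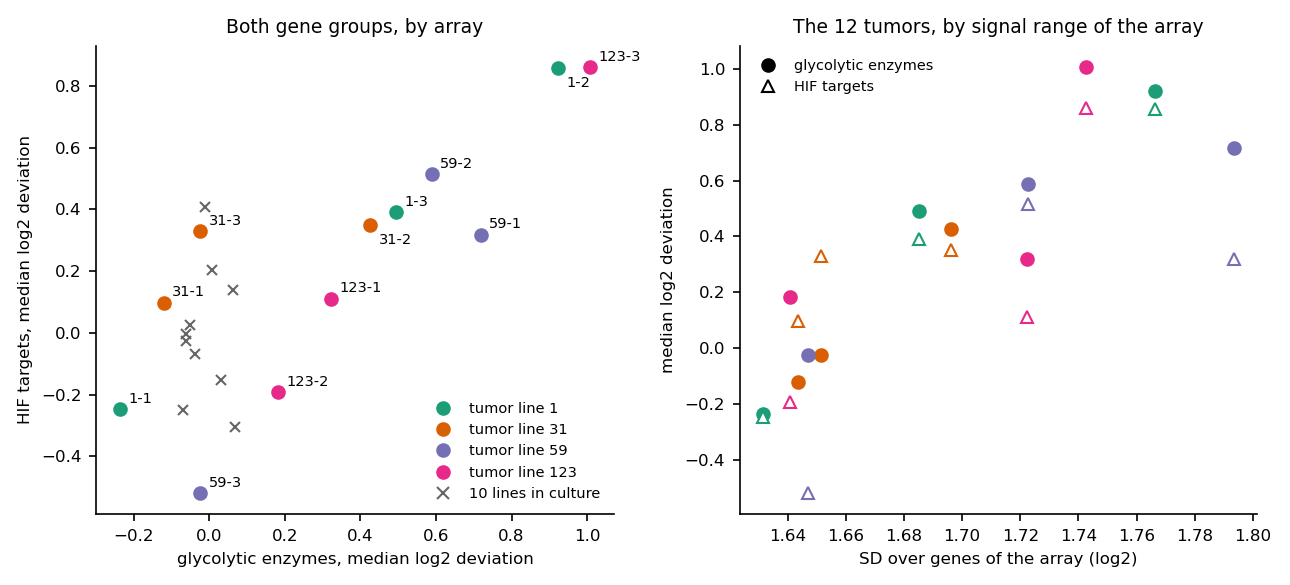
Left, the median log2 deviation of the 9 HIF targets against that of the 11 glycolytic enzymes for each tumor (circles, coloured by line) and each cultured line (crosses), each relative to the mean of its own kind of array; right, both medians in the 12 tumors against the SD over all genes of the array. Tumors 123-3 and 1-2 are at the top for both groups, the cultured lines span -0.07 to 0.07 for the enzymes and -0.31 to 0.41 for the HIF targets, and both medians are higher on tumor arrays with a larger SD.

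Lines 31, 59 and 123 were measured both in culture and as tumors. Each has 1 culture array, and cell and tissue arrays carry different scales, so the values were set side by side without a test once the 12 arrays had been quantile normalized together. The median difference of the 11 enzymes was -0.11 in line 31, -0.02 in line 59 and 0.01 in line 123. That of the 9 HIF targets was 0.55, 0.39 and 0.49, but in line 59 its values over the single tumors ran from -0.12 to 0.67. Above their culture in all 9 tumors were 2 of the 9 targets and 1 of the 11 enzymes, where 15.7% of all genes were. The median of all genes was -0.06, -0.08 and -0.08. As deposited, the same enzyme medians were -1.79, -1.48 and -1.56 and the HIF target medians -1.15, -1.13 and -1.18, beside -1.53, -1.58 and -1.64 for all genes. The HIF target medians and the line 123 enzyme median thus differ in sign between these 2 scales, and the deposited one also holds the offset of all genes. With arrays centred on their medians the enzyme medians were -0.31, 0.03 and 0.01 and the HIF target medians 0.33, 0.38 and 0.39. Those of all genes were then -0.04, -0.07 and -0.07. On each scale the HIF target medians lay above those of all genes, but the centred values of single line 59 tumors ran from -0.21 to 0.71.

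Single genes differed by more. Egln3 was 5.68 in the line 31 culture and 8.58, 8.81 and 9.48 in its tumors. In line 59 it was 6.71 in culture and 7.38, 8.46 and 6.98 in tumors, and in line 123 6.45 in culture and 8.93, 7.86 and 9.55 in tumors. It was above its own culture in all 9 tumors, by 2.17 on average over the 3 lines. Bnip3 (1.73), Epas1 (1.73), Hif1a (1.13), Pdk1 (1.01) and Pfkp (0.88) also lay above their culture in all 9.

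Ldha was 11.94 in the line 31 culture and 10.30, 10.97 and 10.39 in its tumors, and lay below the culture in all 9 tumors by 1.02 on average. Ldhb (-0.96), Slc16a1 (-0.76) and Pfkfb4 (-0.47) were below in all 9 too. For Bnip3 and Ldhb only the probe set whose neighbours lie on another chromosome was read here. Together 6 members (19.4%) were above in all 9 tumors and 4 (12.9%) below, where 15.7% and 23.9% of all genes were. Slc2a1 (-0.71), Pgam1 (-0.60), Aldoa (-0.47), Pfkfb3 (0.95) and Car9 (0.73) fell on different sides in different tumors. With arrays centred on their medians in place of quantile normalization, Pfkp, Pdk1, Egln3, Hif1a and Epas1 stayed above in 9 of 9 and Ldhb and Slc16a1 below in 9 of 9, while Bnip3 was above in 8, Ldha below in 7 and Pfkfb4 below in 8. Tumors also hold host cells, whose share in these differences was not tested.

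**Figure D4:**
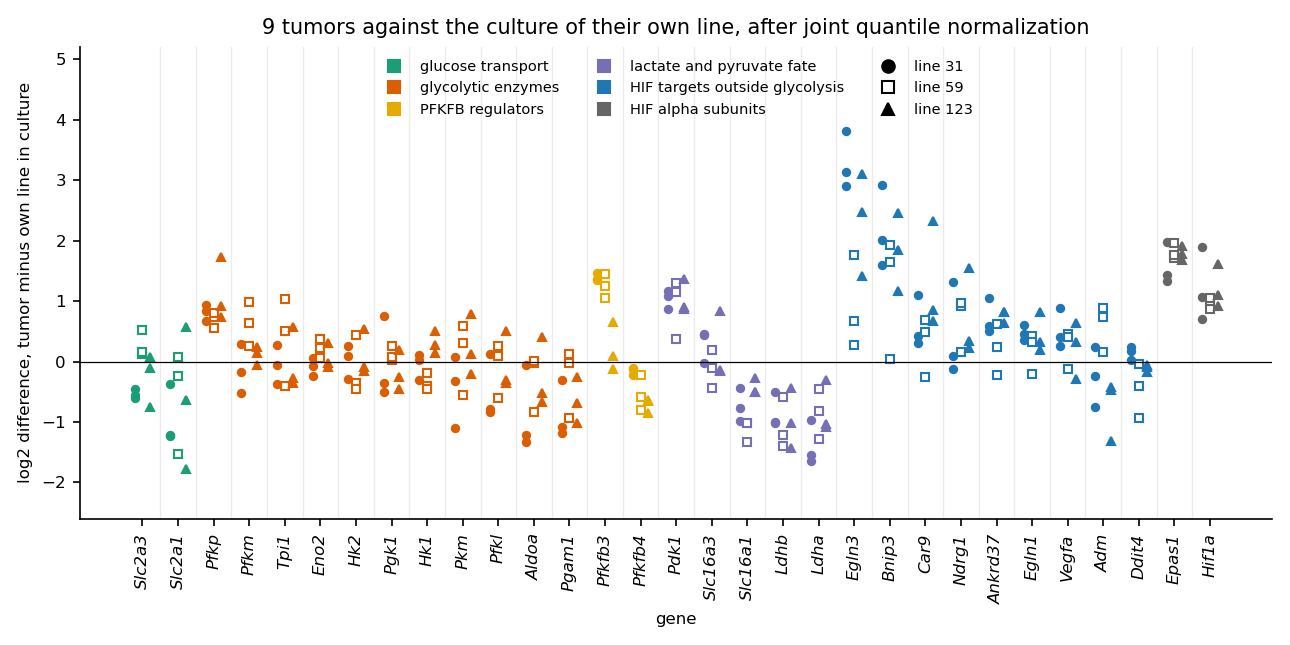
Log2 difference of each of 9 tumors from the single culture array of its own line (31, 59 or 123) after joint quantile normalization, by gene and role. Egln3, Bnip3, Epas1, Hif1a, Pdk1 and Pfkp lie above 0 in all 9 tumors, and Ldha, Ldhb, Slc16a1 and Pfkfb4 below 0 in all 9. The other 10 glycolytic enzymes have tumors on both sides of 0, with the lowest means for Pgam1 (-0.60) and Aldoa (-0.47).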

How the data were processed

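RNA was extracted with Trizol and 100 ng of total RNA was used per array, per the labels' protocols. The authors deposited a table of log2 probe set levels, produced with GCOS, Affymetrix Expression Console and RMA (robust multi-array average), per the submitters' processing notes; their versions, the genome build and which arrays were normalized together are not given in the sources used here. Of 34760 probe sets 21640 were annotated to a single gene, 1321 to several and 11799 to none, and the latter 2 kinds were left out. Arrays give no read depth, so precision rests on the number of arrays.

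Groups followed the labels. Comparisons were fitted to 19937 genes with limma 3.58.1 in R 4.3.3 (lmFit, eBayes, 2-sided, Benjamini-Hochberg), with no covariates and only the groups compared in each fit. The fit was tested on simulated data. Python 3.11.15 (pandas 2.3.3, numpy 2.4.6) did the other steps, and figures were drawn in matplotlib 3.10.9. Text names all members, and of every other list up to 3 genes a direction with the largest called changes, plus fixed paralogues of member enzymes. The members, lists and tests were chosen with earlier results of these data known. Alternatives were other scalings, filters, probe set rules, fits and left-out samples. The use of own-chromosome probe sets for Hk1, Bnip3, Pkm and Ldhb was chosen after seeing the data.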

Additional observations from a re-analysis of the deposited data

Results flagged for a closer look

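A sample was picked out where its gap to the nearest other sample of the group, divided by the group's range, passed Dixon's 95% critical value. Of 93 groups of 4 to 10 samples 6 did so (6.45%), where chance gives about 1 in 20. Car9 was 8.93 in line 116, in both the 6 p53 mutant lines and all 10 lines, where the other 5 mutant lines were 6.31 to 6.72. Epas1 was 8.97 in the same line, again in both sets, with the other 9 lines at 6.40 to 6.71. Ldhb was 12.21 in line 119, with the other lines at 9.40 to 10.61. Aldoa was 12.26 in line 95, with the lowest of the other lines at 11.80.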

How the results depend on the processing

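Precision is limited by 2 NSC and 3 SubQ arrays, by 1 array per line, by unstated joint normalization and by the narrow signal range of the SubQ arrays. Of 144 summary values under other settings 109 stayed within the bounds set for them, as did 117 of 146 with a sample left out, and 336 of 407 and 427 of 523 values of single genes. For tumors against SubQ under quantile normalization Aldoa (-0.17), Tpi1 (-0.022), Pfkfb4 (0.22) and Vegfa (-0.43) turned. For lines against NSCs the 2 members called higher became 1 at 2-fold, 1 with all 27 arrays in the fit and 1 with mutant lines alone; the 0 called lower became 1 with genes above the median level, 1 under quantile normalization, 3 with all 27 arrays, 4 with mutant lines alone and 1 with WT lines alone; and the 13 TCA genes became 0 at 2-fold, 7 with all 27 arrays and 8 with WT lines alone. Leaving out samples gave 0 to 3 members higher, 0 to 3 lower and 3 to 13 TCA genes. The 0 members lower in p53 mutant lines became 1 with all 27 arrays (Adm, limma adjusted p = 0.0482). The 1 member lower in tumors became 0 with the median filter, centred arrays, quantile normalization, 2-fold and line means, and was 0 to 1 with samples left out. The 2 members of the F test became 1 with the filter, centring or 2-fold and 0 with all 27 arrays (0 to 1 with samples left out), and the 2 for line 1 became 1 with centring or 2-fold and 0 with all 27 arrays (1 to 2). Tumor minus culture medians as deposited were -1.79, -1.48 and -1.56 for the enzymes and -1.15, -1.13 and -1.18 for the HIF targets. Those of all genes on that scale were -1.53, -1.58 and -1.64.

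Same-numbered tumors of different lines correlated in their deviations at -0.282 to 0.335 over 18 pairs (median 0.00, with 3 over 0.1). Other pairs had a median of 0.007. These values do not settle whether equal numbers mark paired samples, and no pairing entered the main fits. With the replicate number as a block, lines against NSCs gave 4 members higher, 4 lower and 8 TCA genes lower. Only numbers 1 and 2 occur among both lines and NSCs, so that fit compared line 3 with NSC 1 and line 28 with NSC 2. The other lines did not enter its difference, and its counts do not stand for all the lines. With the same block the F test gave 1 member and line 1 gave 1. Counts of all genes called moved from 2992 to 1204 at 2-fold for lines (1402 to 3170 with samples left out), from 4 to 1 with the filter and 36 with all 27 arrays for p53 (0 to 10), from 15256 to 7153 with the filter and 8641 at 2-fold for tumors, from 1010 to 666 at 2-fold for the F test (469 to 1659), and at 2-fold from 922 to 339 for line 1 (329 to 1388), 277 to 111 for line 31 (47 to 562), 233 to 108 for line 59 (86 to 304) and 169 to 81 for line 123 (44 to 278).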

Other observations

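Gapdh, the glycolytic dehydrogenase often used as a reference gene, lay on 11 probe sets annotated to several genes. Their difference between lines and NSCs ran from -0.17 to 0.44 (median 0.06). Between tumors and SubQ it ran from -0.98 to 2.79 (median 0.78), so the probe sets did not give one direction, and no Gapdh value entered any comparison.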
